A study of Anser cygnoides with 6 samples.

Results

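Intergenic single-exon lncRNAs are transcripts that the authors' assembly placed away from every annotated gene (class code u) and listed with 1 exon. All rows of the deposited table of unannotated lncRNAs with both labels were taken, whatever their level, which gave 6587 of 14993 transcripts (43.9%). The table comes from primary myoblasts of the Shitou goose (Anser cygnoides), wild type, from muscle. The DM group (3 libraries) was cultured in 2% horse serum for 2 to 4 days according to the labels, a switch that makes myoblasts leave the cell cycle and fuse into myotubes. The methods of the study give 3 days of differentiation, and the labels do not give the day of each library. The GM group (3 libraries) was kept in growth medium with 15% fetal bovine serum, where myoblasts proliferate. The study describes embryo myoblasts that were mixed and divided into cultures, but also speaks of RNA-seq data from several geese. The labels do not settle whether the 3 libraries of a stage are cultures of 1 pool or separate birds, so the spread and the p-values may be those between cultures only. Serial plating was used to enrich myoblasts over fibroblasts, and no cell sorting is described.

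Long noncoding RNAs are defined by a minimum length and by a low potential to code for a protein. Intergenic ones are transcribed from their own promoters, from enhancers or from the flanks of genes, and single-exon ones are not spliced. In muscle, lncRNAs are known that bind transcription factors, take up microRNAs or act on a gene beside them, and many others have no known function. A single-exon transcript in an assembly of total RNA can also come from unspliced or continued transcription or from genomic DNA, and which of these applies to each transcript was not tested.

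The values are FPKM, fragments per kilobase of transcript, scaled to the total of mapped fragments, with 0.0001 written for 0. The deposited tables hold no read totals. The commonest product of FPKM and length among low values, taken as 1 fragment, would correspond to 20194533 to 24379940 fragments in DM libraries and 22103195 to 25379061 in GM libraries. Only 12.8% to 15.9% of low values were whole multiples of it within 0.02, so these fragment equivalents are estimates and no read counts were recovered. Of the muscle markers, 7 of 9 were in the gene table, none at 0 throughout, and their summed level was 1053 to 1067 FPKM in DM and 969 to 1088 FPKM in GM. These 7 moved both ways, with 2 called higher and 3 lower in DM. The summed level of 5 of 6 listed fibroblast markers was 2589 to 2888 FPKM in DM and 1281 to 1330 FPKM in GM, and 3 of the 4 tested were called higher in DM. The 4 endothelial markers summed to 1.26 to 1.31 FPKM in DM and 2.43 to 2.58 FPKM in GM, with 1 tested and none called. In bulk RNA, fewer cells of a type and less RNA per cell cannot be told apart, and the part of these shifts in the results was not tested.

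The transcripts were short and mostly without a strand. Their length ran from 201 to 27385 bases with a median of 473, against 1183 bases for intergenic multi-exon transcripts and 394 bases for intronic single-exon ones. A strand was given for 585 of them (305 plus, 280 minus) and none for 6002. They lay on 461 of the 515 scaffolds of the table, with a median of 8 on a scaffold and at most 155. Only 11 neighbouring pairs overlapped. At 5 positions the same interval was listed on both strands, as 10 transcripts.

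The levels were low. A mean of 0.5 to 2 FPKM over the 6 libraries was found for 5350 transcripts (81.2%), under 0.5 FPKM for 740, and 10 FPKM or more for 83. The 10 highest held 13.7% of the summed FPKM of the class. All 6 libraries had a value above 0 for 5447 transcripts, and 8 were listed at 0 in all 6. The median transcript had 9.30, 8.25 and 8.0 fragment equivalents in the DM libraries, against 13.7, 11.7 and 11.4 in the GM libraries. Longer transcripts had higher FPKM (Spearman's rho 0.413 across the 6587 transcripts, a description, since they share libraries and a detection limit that depends on length).

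The median level of the class averaged lower in DM, but the libraries of the stages overlapped. The median transcript had 0.945, 0.646 and 0.657 FPKM in DM and 1.28, 0.923 and 1.07 FPKM in GM, so 1 DM library lay above 1 GM library (0.749 ± 0.169 in DM against 1.09 ± 0.177 in GM, SD, n = 3 each, two-sided exact permutation p = 0.2). The share of transcripts listed at 0 was 5.81%, 6.83% and 7.99% in DM and 3.05%, 3.43% and 3.98% in GM. These shares did not overlap, and the exact permutation p of 0.1 is the smallest that 3 libraries against 3 can give. Annotated genes were listed at 0 more often in DM as well (12.4%, 12.2% and 12.4% in DM, against 9.81%, 9.86% and 10.6% in GM), again without overlap. The class took 1.32%, 1.07% and 1.07% of fragment equivalents in DM and 1.62%, 1.31% and 1.39% in GM (two-sided exact permutation p = 0.2). As a share of the summed FPKM of all lncRNAs it made up 16.5%, 15.5% and 6.79% in DM and 15.0%, 10.01% and 10.6% in GM, a difference of 1.04 percentage points that is smaller than the spread within DM. The median annotated gene had 2.88 ± 0.0663 FPKM in DM and 2.96 ± 0.0237 FPKM in GM.

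**Figure D1:**
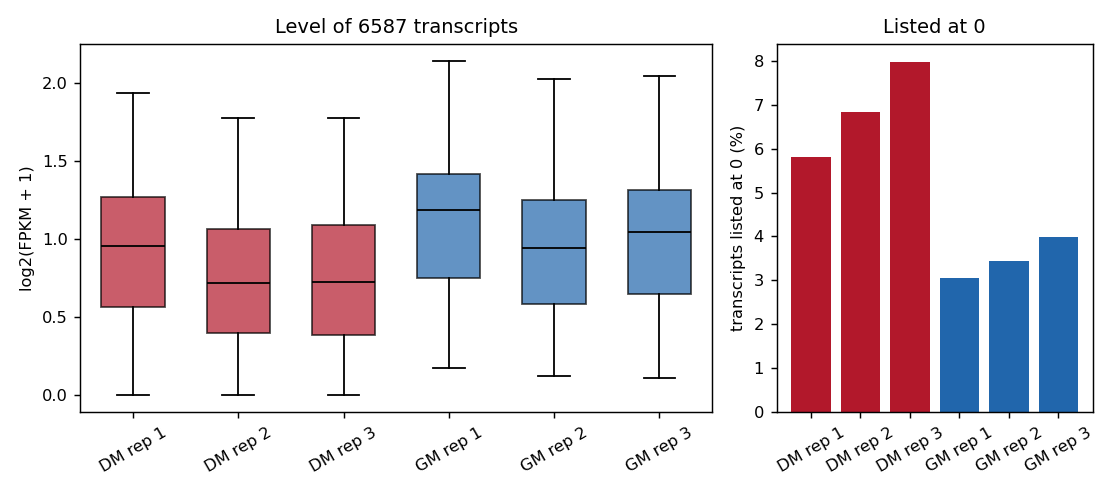
Left, level of the 6587 intergenic single-exon lncRNAs in each library as log2(FPKM + 1); boxes span the quartiles, the line is the median and whiskers reach the 5th and 95th percentiles. Right, the percentage listed at 0, which is 5.81% to 7.99% in DM and 3.05% to 3.98% in GM.

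Between the stages, 90 intergenic single-exon lncRNAs were called, 22 higher and 68 lower in DM. A call required an adjusted p under 0.05 and a change of more than 1 on the log2(FPKM + 1) scale in the limma fit over all 12988 lncRNAs with a mean of at least 0.5 FPKM. The class had 5847 transcripts in that fit (88.8% of 6587), of which 1.54% were called. Of all lncRNAs tested 2.01% were called, 0.562% higher and 1.45% lower, so the share in the class was close to that of the whole table. Intergenic multi-exon transcripts were called in 5.21% of 806 cases and intronic single-exon ones in 1.18% of 3816, and genes in 4.02% of 10381. Without the limit on the fold change 169 of the class had an adjusted p under 0.05, 37 higher and 132 lower, beside 3.62% of all lncRNAs tested.

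The direction of this count depended on how the libraries were scaled. With FPKM as deposited 75.6% of the calls were lower in DM. After quantile normalization 31.5% of 89 calls were lower (61 higher, 28 lower), among 244 calls of all lncRNAs. After division by the library median 27.1% of 85 were lower (62 higher, 23 lower), among 242. The median log2 fold change of the class was -0.25, beside -0.22 for all lncRNAs, -0.14 for intergenic multi-exon and -0.22 for intronic single-exon transcripts, and -0.026 for genes. Quantile normalization brought the medians of the class and of all lncRNAs to -0.058 and -0.033. Division by the library median brought them to -0.051 and -0.0098. Both scalings were computed on the lncRNAs alone, the medians over 11823 of them with a value above 0 in all libraries. They take out any shift common to the lncRNAs, so medians near 0 were fixed in advance. Whether the lncRNAs fell as a whole cannot be read from them. With FPKM as deposited, genes in the same range of levels, 0.5 to 1.5 FPKM, had a median of -0.034, and 1.47% of 1564 were called. All 22 transcripts called higher and 22 of the 68 called lower were called in the same direction under all 3 scalings. Leaving out 1 library at a time left 9 to 35 calls, and 9 transcripts were called each time.

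**Figure D2:**
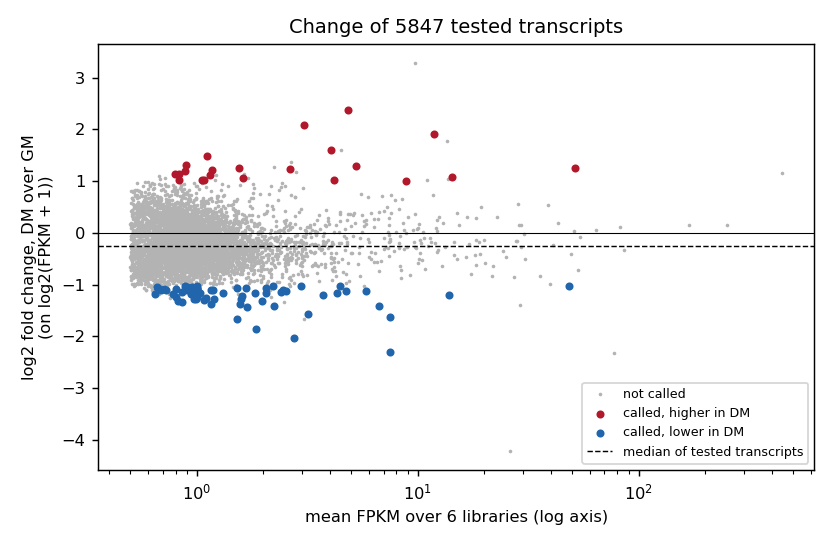
Log2 fold change (DM over GM, on log2(FPKM + 1)) of the 5847 tested transcripts against their mean FPKM on a log axis. The 22 called higher in DM (red) and 68 called lower (blue) are marked, grey points were not called, and the dashed line is the median of -0.25.

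Every DM library lay below every GM library for 1645 of the tested transcripts (28.1%, beside 25.0% of all lncRNAs tested), and above for 385 (6.58%, beside 7.30%). An unadjusted p under 0.05 was found for 1554 of them, beside 25.8% of all lncRNAs. Both shares were near those of the whole table.

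The spread between libraries followed the number of fragments. The median coefficient of variation was 81.1% in DM and 68.5% in GM for transcripts with under 5 fragment equivalents per library, and 17.7% in DM and 14.0% in GM for those with 100 or more. The share called was 0.647% in the lowest class, 1.42% and 1.38% in the middle ones and 4.00% in the highest. Transcripts with a strand were longer (median 1574 bases) and higher (median 1.53 FPKM), and 23 of 564 tested were called (4.08%), against 67 of 5283 without a strand (1.27%), whose median length was 441 bases.

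**Figure D3:**
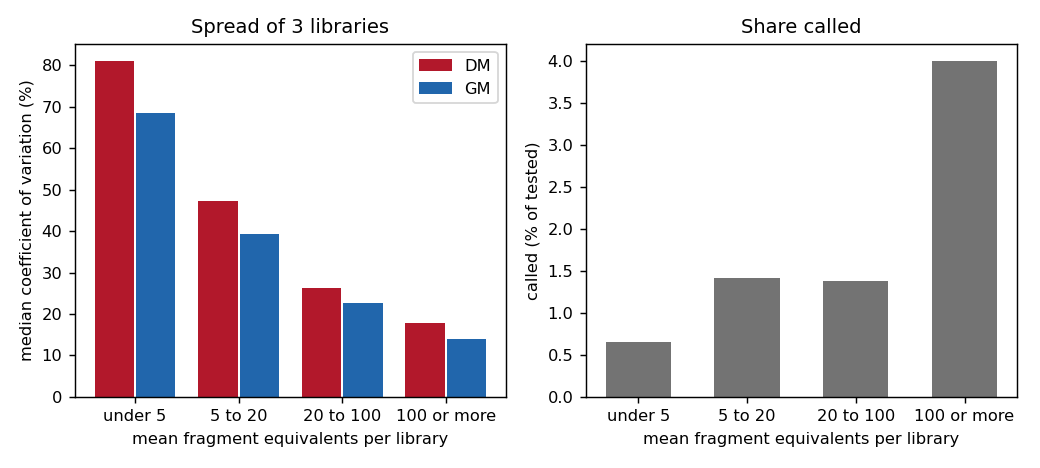
Left, median coefficient of variation of the 3 DM and 3 GM libraries for tested transcripts grouped by mean fragment equivalents per library. Right, the percentage of tested transcripts called in each group, from 0.647% under 5 fragment equivalents to 4.00% at 100 or more.

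The transcript with the clearest increase was MSTRG.9779.1, plus strand, at 834694 to 837721 of scaffold NW_013185688.1 (3028 bases, coordinates of the authors' assembly as in all that follow). It had 8.87, 8.39 and 9.11 FPKM in DM, against 0.838, 0.815 and 1.04 FPKM in GM (log2 fold change 2.37, SE 0.14, adjusted p = 0.00101). The DM libraries lay close together and far above the GM libraries. The nearest gene name in the lncRNA table was SERPINE3, a member of the serpin family of protease inhibitors, 23581 bases away, whose own level was 0.153 ± 0.0828 FPKM in DM and 0.133 ± 0.0544 FPKM in GM. SERPINE3 was too low to be tested, so whether it shared the rise of MSTRG.9779.1 cannot be told.

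MSTRG.24563.1 is a 6174-base transcript on the plus strand of NW_013185868.1 (894300 to 900473), 220459 bases from the nearest named gene, BEND7. It had 19.1, 20.2 and 18.9 FPKM in DM, against 4.65, 4.19 and 4.42 FPKM in GM (log2 fold change 1.91, SE 0.13, adjusted p = 0.00161). Its DM libraries lay close together, and it had 8086 fragment equivalents summed over the DM libraries and 1942 over the GM libraries.

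MSTRG.321.1, 356 bases without a strand (NW_013185654.1, 10620510 to 10620865), was both called higher and among the 10 highest transcripts. It had 71.4, 75.1 and 71.2 FPKM in DM, against 30.9, 31.8 and 27.0 FPKM in GM. It lies 3415 bases from ANAPC16, a subunit of the anaphase-promoting complex, the ubiquitin ligase that ends mitosis. ANAPC16 itself was at 1.99 ± 0.526 FPKM in DM and 2.48 ± 0.674 FPKM in GM (adjusted p = 0.416), far below the transcript beside it.

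MSTRG.18316.1 had a low FPKM in proliferating cells. It is a 5135-base transcript on the minus strand of NW_013185762.1 (1695594 to 1700728), 124 bases from LOC106041719, and had 2.26, 2.24 and 1.83 FPKM in DM, against 0.0595, 0.145 and 0.118 FPKM in GM (log2 fold change 1.49). Because it is long, the GM values still amount to 7.26, 18.9 and 13.4 fragment equivalents. MSTRG.18315.1, which lies just before it and has no strand, had 1.64, 0.452 and 0.611 FPKM in DM and was listed at 0 in all 3 GM libraries. Its mean over the 6 libraries was under 0.5 FPKM, so it was not tested.

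Further transcripts rose from low levels in GM. MSTRG.7244.1 (420 bases) had 7.25, 5.05 and 4.36 FPKM in DM, against 0.363, 0.795 and 0.421 FPKM in GM. MSTRG.15123.1 (5419 bases) had 1.89, 2.03 and 1.91 FPKM in DM, against 0.444, 0.238 and 0.386 FPKM in GM. In both, the stages did not overlap. MSTRG.19655.1 (705 bases) had 7.98, 7.24 and 4.60 FPKM in DM, against 1.23, 2.05 and 1.20 FPKM in GM. MSTRG.8685.1, which lies within the span of CEP57 transcripts, had 3.12, 2.05 and 2.61 FPKM in DM, against 0.376, 0.522 and 0.617 FPKM in GM. The log2 fold changes of these 4 ran from 1.12 to 2.09.

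MSTRG.26338.1, 225 bases on NW_013185914.1, was the shortest of the 10 rising transcripts with the smallest adjusted p. It had 4.02, 3.21 and 5.19 FPKM in DM, against 1.30, 0.989 and 1.17 FPKM in GM. The last of the 10, MSTRG.29629.1, had 8.23, 8.03 and 7.39 FPKM in DM, against 2.51, 2.82 and 2.54 FPKM in GM. It is listed on the minus strand at 36873 to 38676 of NW_013186150.1, and MSTRG.29630.1 holds the same interval on the plus strand with nearly the same values except a 0 in DM replicate 2. Which strand carries the RNA is therefore uncertain, and MSTRG.29630.1 was not called (adjusted p = 0.865).

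**Figure D4:**
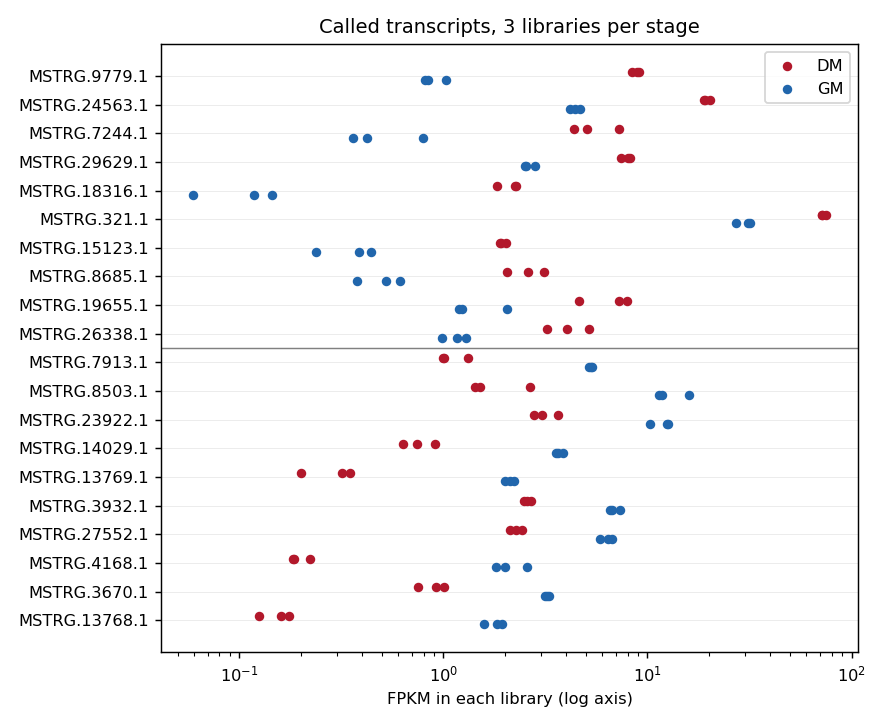
FPKM on a log axis in each of the 3 DM (red) and 3 GM (blue) libraries for the 10 transcripts called higher in DM (above the line) and the 10 called lower (below it) with the smallest adjusted p. In all 20 the stages do not overlap. MSTRG.18316.1, for example, lies at 1.83 to 2.26 FPKM in DM and at 0.0595 to 0.145 FPKM in GM.

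Among called transcripts the largest fall on the log2(FPKM + 1) scale was that of MSTRG.8503.1, a 4412-base transcript on the plus strand of NW_013185680.1 (4320384 to 4324795). It had 2.65, 1.505 and 1.43 FPKM in DM, against 16.0, 11.4 and 11.8 FPKM in GM (log2 fold change -2.31, SE 0.21, adjusted p = 0.00288). The nearest named gene was ZNHIT6, a factor for the assembly of small nucleolar RNA particles, 13285 bases away. The transcript of the class before it, MSTRG.8502.1, was called lower too.

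MSTRG.23922.1 (2019 bases, plus strand, NW_013185857.1, 1413264 to 1415282) had 3.66, 3.06 and 2.77 FPKM in DM, against 12.6, 10.3 and 12.5 FPKM in GM (log2 fold change -1.62). The nearest named gene moved the other way. MKNK2, a kinase that phosphorylates the translation factor eIF4E, lies 87132 bases away and had 14.5, 12.9 and 13.6 FPKM in DM, against 5.89, 5.59 and 6.44 FPKM in GM (log2 fold change 1.08, adjusted p = 0.00049).

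MSTRG.7913.1 (3542 bases) had 1.32, 1.001 and 1.01 FPKM in DM, against 5.36, 5.16 and 5.30 FPKM in GM. MSTRG.14029.1 (2019 bases) had 0.637, 0.907 and 0.742 FPKM in DM, against 3.58, 3.87 and 3.64 FPKM in GM. These 2, with MSTRG.8503.1 and MSTRG.23922.1, were the transcripts that were called lower under all 3 scalings and with every library left out in turn. The 5 that rose by the same measure were MSTRG.9779.1, MSTRG.24563.1, MSTRG.7244.1, MSTRG.29629.1 and MSTRG.321.1. With the replicate number as a block in the fit, MSTRG.321.1 alone of these rising and falling transcripts was not called (adjusted p = 0.0514 in limma).

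Beside IL17A, the gene of a proinflammatory cytokine, a pair of transcripts fell together with the gene. MSTRG.13768.1 (5725 bases, NW_013185717.1, 2526975 to 2532699) lies 1256 bases from the nearest IL17A transcript of the table and had 0.161, 0.126 and 0.175 FPKM in DM, against 1.94, 1.83 and 1.59 FPKM in GM. MSTRG.13769.1 (235 bases, 7652 bases from IL17A) had 0.200, 0.349 and 0.321 FPKM in DM, against 2.01, 2.12 and 2.21 FPKM in GM. Both had a change of -1.27 on the log2(FPKM + 1) scale, which understates the fall in FPKM at such low levels. IL17A had 0.329, 0 and 0.124 FPKM in DM, against 2.64, 1.56 and 2.21 FPKM in GM (log2 fold change -1.44, adjusted p = 0.00187). In mammals this neighbourhood also holds the gene of the muscle microRNA miR-206, and whether either goose transcript corresponds to its precursor was not tested.

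The remaining 4 of the 10 falling transcripts with the smallest adjusted p had log2 fold changes of -1.38 to -1.13. MSTRG.3932.1 (4927 bases) had 2.58, 2.49 and 2.68 FPKM in DM, against 7.32, 6.53 and 6.70 FPKM in GM. MSTRG.3670.1 (4724 bases) had 0.919, 0.750 and 1.01 FPKM in DM, against 3.14, 3.29 and 3.23 FPKM in GM. MSTRG.27552.1 lies 1430 bases from LASP1, an actin-binding adaptor, and had 2.28, 2.12 and 2.44 FPKM in DM, against 5.85, 6.69 and 6.38 FPKM in GM. LASP1 was at 51.1 ± 0.474 FPKM in DM and 61.8 ± 5.24 FPKM in GM, a log2 difference of -0.27. MSTRG.4168.1, 222 bases, rested on about 1 fragment equivalent in each DM library against 9.54, 11.3 and 12.6 in the GM libraries.

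All 90 called transcripts had stages that did not overlap, which the call nearly requires. Their log2 fold changes ran from 1.0 to 2.37 upward and from -2.31 to -1.02 downward, on 64 scaffolds. The median transcript called higher had 2.55 FPKM in DM and 0.516 FPKM in GM, and the median one called lower had 0.285 FPKM in DM and 1.98 FPKM in GM. Of the 90, 60 had a mean under 2 FPKM and 46 under 20 fragment equivalents per library.

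The transcripts lay in groups along the scaffolds. With a gap of at most 5 kb, 3848 of them (58.4%) formed 1256 clusters and 2739 stood alone. Of the clusters 173 had 5 or more transcripts and 22 had 10 or more. With FPKM as deposited, the mean level was lower in DM in 150 of these 173. For comparison, 71.8% of tested transcripts of the class and 68.4% of all lncRNAs tested had a log2 fold change under 0. None of the 172 clusters tested as 1 length-weighted locus was called (log2 fold changes from -1.01 to 0.93). The 3 with the most transcripts held 18, 14 and 13, and their log2 fold changes were -0.40, -0.42 and -0.29. Of 2331 neighbouring tested pairs, 68.1% lay on the same side of the median change of the class. Neighbours are not independent, since one RNA can be assembled as several transcripts.

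Runs of consecutive tested transcripts with every DM library below every GM library numbered 1016, of which 681 were single transcripts and 33 had 5 or more. The longest run held 17, and after division by the library median the longest run was the same. Runs with every DM library above every GM library numbered 288. The stretches described next were chosen after their values were seen and are described without a test.

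The named gene nearest to the longest run was THBS1, which encodes thrombospondin-1, a matrix glycoprotein that binds integrins and activates latent TGF-beta. From 18133 bases beyond the last THBS1-named transcript, 47 transcripts followed each other over 265 kb (NW_013185668.1, 2223694 to 2488881). The mean was lower in DM for 46 of them, and 33 of 37 tested (89.2%, beside 28.1% of the class) had every DM library below every GM library. Their length-weighted mean level was 0.300, 0.200 and 0.198 FPKM in DM, against 1.68, 1.05 and 1.14 FPKM in GM, 5.55-fold higher in GM. Of the 37 tested, 3 were called and 8 had an adjusted p under 0.05, beside 2.01% and 3.62% of all lncRNAs tested. The log2 fold changes of the 37 tested ran from -1.24 to -0.11.

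The called ones in this stretch were MSTRG.5385.1, MSTRG.5391.1 and MSTRG.5431.1. MSTRG.5391.1, the longest with 7135 bases, had 0.269, 0.242 and 0.211 FPKM in DM, against 1.84, 1.33 and 1.41 FPKM in GM (log2 fold change -1.02, adjusted p = 0.0276). The one transcript with a higher mean in DM, MSTRG.5408.1 (228 bases), had 1.63, 0 and 0.137 FPKM in DM, against 0.273, 0.490 and 0.995 FPKM in GM. Its stages overlapped. For the last 9 transcripts of the stretch, MSTRG.5431.1 included, the nearest named gene was not THBS1 but KATNBL1, at least 163873 bases away, which was at 5.15 ± 0.381 FPKM in DM and 8.75 ± 1.15 FPKM in GM (log2 fold change -0.66, adjusted p = 0.00679, under the limit on the fold change).

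THBS1 itself had 420, 400.5 and 441 FPKM in DM, against 1740, 1666 and 1757 FPKM in GM (log2 fold change -2.03, adjusted p = 8.45e-05), so it fell as well, at a far higher level. An antisense multi-exon transcript over its exons, MSTRG.5381.1, is listed on the plus strand, which places THBS1 on the minus strand and the stretch on the side of its start. Among the spliced intergenic transcripts within the stretch, MSTRG.5390.1 had 1.02, 0.864 and 0.833 FPKM in DM, against 5.55, 5.35 and 4.56 FPKM in GM, and was called lower too. MSTRG.5425.1 had 0.273, 0.486 and 0.210 FPKM in DM, against 1.64, 0.989 and 1.54 FPKM in GM, and was not called (adjusted p = 0.059 in limma). MSTRG.5389.1 and MSTRG.5389.2 were too low to be tested, with means of 0.0507 and 0.0388 FPKM in DM and 0.0510 and 0.372 FPKM in GM.

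The second longest run, of 11, lies beside GRIP2, a scaffold protein with PDZ domains. Here 16 transcripts over 74.8 kb (NW_013185839.1, 275830 to 350626) ended 6638 bases before the first intronic transcript of GRIP2. Their length-weighted mean level was 0.0731, 0.0474 and 0.0647 FPKM in DM, against 1.57, 0.773 and 1.08 FPKM in GM, 18.5-fold higher in GM. In 15 of the 16 every DM library lay below every GM library, beside 25.0% of all lncRNAs tested. The stretch was picked for this pattern. Of the 16, 3 were called, beside 2.01% of all lncRNAs tested. The fall was not confined to the class, since the intronic single-exon transcripts of GRIP2 past the stretch also had lower means in DM. Of these, MSTRG.23052.1 was listed at 0 in all DM libraries, had 2.49, 1.83 and 2.09 FPKM in GM and was called lower. MSTRG.23044.1 and MSTRG.23049.1 were listed at 0 in all DM libraries, with 1.43, 0.944 and 1.51 FPKM and 1.30, 0.800 and 1.41 FPKM in GM. GRIP2 had 0.498, 0.380 and 0.321 FPKM in DM, against 1.26, 1.02 and 1.49 FPKM in GM (log2 fold change -0.68, adjusted p = 0.00461, under the limit on the fold change).

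**Figure D5:**
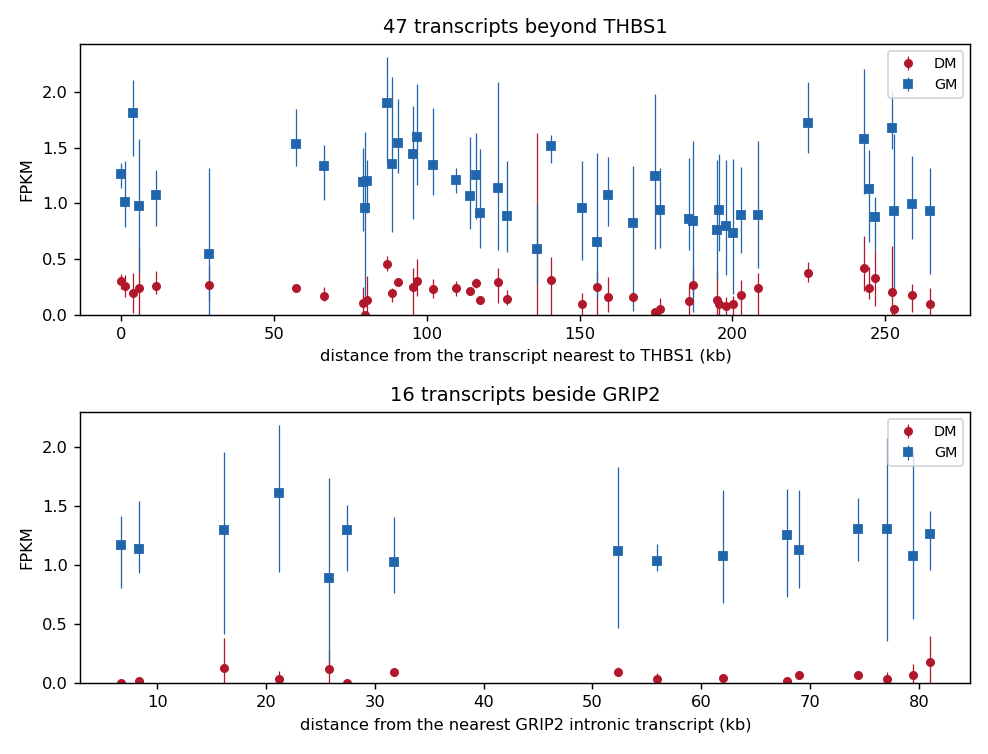
Mean FPKM of each intergenic single-exon lncRNA in DM (red circles) and GM (blue squares), with bars from the lowest to the highest of the 3 libraries. Above, the 47 transcripts of the stretch that begins beside THBS1 by distance from the one nearest to THBS1; below, the 16 of the GRIP2 stretch by distance from the nearest GRIP2 intronic transcript. All but 1 of the 63 means are lower in DM.

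Gene positions were taken from the 3518 gene names that the lncRNA table pairs with coordinates, so distances to other genes are not known. A named gene lay within 5 kb of 445 transcripts (6.76%), and within 100 kb of 3903 (59.3%). Of the 90 called transcripts, 58 had one within 100 kb, and for 42 of them that gene was tested. The gene was on the same side of 0 as the transcript in 27 of 42, was called in 7 and was called in the same direction in 6. The 7 held 5 distinct genes, since IL17A and THBS1 each stood beside a pair. Among 2494 tested transcripts that were not called and had a tested gene as near, 59.3% lay on the same side of 0 as the gene, against 64.3% of the 42, and the gene was called for 3.53%, against 16.7% of the 42. Several transcripts share a gene, so these shares are given as a description, with no test. The 1 that was called in the opposite direction was MKNK2. The 6 were the pair beside IL17A, a pair near THBS1, and 1 each near TNS4 and ITGA8.

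TNS4 encodes tensin-4 of focal adhesions. MSTRG.28981.1, 228 bases and 18999 bases from TNS4, had 0.103, 0 and 0.173 FPKM in DM, against 1.40, 1.37 and 1.65 FPKM in GM. TNS4 was at 0.867 ± 0.0594 FPKM in DM and 3.90 ± 0.317 FPKM in GM (log2 fold change -1.39). MSTRG.15749.1, 309 bases and 73176 bases from ITGA8, an integrin alpha subunit, had 0.113, 0.131 and 0 FPKM in DM, against 1.13, 1.17 and 1.46 FPKM in GM. ITGA8 was at 13.1 ± 3.44 FPKM in DM and 29.95 ± 0.260 FPKM in GM (log2 fold change -1.16). Both transcripts rested on few fragments, with adjusted p-values of 0.0271 for MSTRG.28981.1 and 0.0478 for MSTRG.15749.1 in limma.

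A list of 60 genes was drawn up for muscle, which also holds cell cycle and matrix genes such as THBS1. Of these 60, 12 had a position, and 7 of the 12 had transcripts of the class within 100 kb, 26 in all. THBS1 had 11 of the 26, among them the 2 that were called, MSTRG.5385.1 and MSTRG.5391.1. Near the other genes none was called, but few were tested. These were 7 near TNNT3, 2 near MEF2A, and 1 each near PAX7, SIX4, IGF1R and MYOM1. As 2.01% of all lncRNAs tested were called, so few cannot show whether transcripts near these genes change less often. Near TNNT3, the fast skeletal troponin T gene, 7 of 8 transcripts were tested and none was called (median log2 fold change 0.40), and TNNT3 was at 14.7 FPKM in DM and 10.4 FPKM in GM (adjusted p = 0.0519). Near PAX7, the satellite cell transcription factor, MSTRG.16328.1 had 3.51 ± 0.251 FPKM in DM and 3.51 ± 0.754 FPKM in GM, while PAX7 was at 2.88 FPKM in DM and 10.2 FPKM in GM (log2 fold change -1.53, adjusted p = 0.000156).

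Most of the highest transcripts were not called. The highest, MSTRG.4947.1 (406 bases, 2742 bases from SIRT4), had 465, 648 and 665 FPKM in DM, against 297, 128 and 466 FPKM in GM, where a GM library lay as high as a DM library (adjusted p = 0.157). MSTRG.29697.1 (219 bases) had 174, 173 and 187 FPKM in DM, against 165, 149 and 165 FPKM in GM. MSTRG.25679.1 (1183 bases) had 51.5, 52.9 and 54.1 FPKM in DM, against 54.4, 55.7 and 57.6 FPKM in GM (log2 fold change -0.080, SE 0.15). For MSTRG.8652.1 (214 bases) the stages did not overlap, with 49.9, 29.2 and 41.7 FPKM in DM against 73.8, 58.8 and 63.7 FPKM in GM. Its change missed both thresholds of a call (log2 fold change -0.71, adjusted p = 0.106 in limma).

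Of the other highest transcripts, MSTRG.25864.1 had 83.1, 77.7 and 67.2 FPKM in DM, against 93.5, 97.9 and 95.9 FPKM in GM. MSTRG.28658.1 and MSTRG.29821.1 had overlapping stages, with means of 84.8 and 65.1 FPKM in DM and 79.1 and 62.7 FPKM in GM. MSTRG.29442.1 and MSTRG.29443.1 are the same interval of NW_013186121.1 (49868 to 50868) on opposite strands. MSTRG.29442.1 had 291, 240 and 265 FPKM in DM, against 211, 236 and 271 FPKM in GM. MSTRG.29443.1 had 0, 122 and 54.6 FPKM in DM, against 125, 91.1 and 72.8 FPKM in GM. The 0 in DM replicate 1 stands beside a high value of its partner in the same library.

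The longest transcripts spanned over 20 kb without an intron. MSTRG.4300.1 (27385 bases) had 2.09, 1.33 and 1.36 FPKM in DM, against 2.18, 1.49 and 1.49 FPKM in GM, with overlapping stages. MSTRG.18017.1 (22612 bases) had 1.55, 0.899 and 0.858 FPKM in DM, against 3.04, 1.87 and 1.87 FPKM in GM, which did not overlap, and its change was not called (log2 fold change -0.63). MSTRG.25871.1 (21700 bases) had 1.29, 0.674 and 0.765 FPKM in DM, against 2.08, 1.16 and 1.13 FPKM in GM. In all 3 the first replicate was the highest of its stage, as in the median of the class.

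Listing at 0 in a whole stage was counted over all transcripts of the class. In DM 48 transcripts were at 0 in every library and above 0 in every GM library, and 7 showed the reverse. These are 0.729% and 0.106% of the class, beside 0.707% and 0.153% of all lncRNAs, so the class was near the whole table. The highest of the 48, MSTRG.15820.1, had 0.994, 0.912 and 2.61 FPKM in GM, which is 5.34, 5.23 and 13.0 fragment equivalents, so a level of up to a few fragments in DM could be missed. The highest of the 7, MSTRG.3655.1, had 1.65, 1.38 and 0.188 FPKM in DM. Neither was called.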

How the data were processed

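Total RNA of 3 DM and 3 GM cultures was depleted of ribosomal RNA and sequenced from stranded libraries. The methods of the study name no stranded preparation, and 6002 of the 6587 transcripts carry no strand, so how far strands can be used is not settled. According to the study, the authors trimmed reads with Cutadapt, mapped them to the GooseV1.0 assembly (the methods name Bowtie2, the processing notes list HISAT2 and TopHat), assembled transcripts with StringTie and screened them with CPC and CNCI for coding potential. The methods word this screen as a removal of low-scoring transcripts, although low scores mark noncoding ones in both tools, so its direction is unclear. The deposited values are FPKM per transcript and per gene. The deposited columns of the authors' own comparison (fold change, its log2 value, p-value, q-value, direction) were not used; 0 columns of single samples were unused. Because FPKM are not counts, no count test was run.

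Log2(FPKM + 1) was fitted for rows whose mean reached 0.5 FPKM with limma 3.58.1 (lmFit, eBayes with trend, R 4.3.3), with Benjamini-Hochberg adjustment over all 12988 lncRNAs or, separately, 10381 genes. Summaries used Python 3.11.15 with pandas 2.3.3 and numpy 2.4.6, and figures matplotlib 3.10.9. The fit was tested on simulated data with 200 rows changed 4-fold. It recovered 22% of them among lncRNAs and 82.5% among genes. Of the changed ones at 5 FPKM or above, 62.5% of 8 lncRNAs and 94.8% of 97 genes were recovered. The median lncRNA was at 0.942 FPKM, where log2(FPKM + 1) shrinks a 4-fold change against the limit of 1. Many such changes of low lncRNAs would therefore go uncalled whatever the spread, and the 22% cannot separate this limit from the spread between libraries. The study lists reads per library, which were not used; the FPKM tables carry no counts, so no counting intervals are given, and fragment equivalents are estimates. The named transcripts were the 10 with the smallest adjusted p called in each direction, the 10 highest, the 3 longest, the 3 largest clusters and the 5 highest listed at 0 throughout each stage, with the nearest named gene; others were named after their values were seen. The members and lists were chosen with earlier results of these data known. No genome of the files' assembly was used here, so sequences were not analysed. Alternatives were the pseudocount, filters, scaling, trend, replicate block, each library left out, and clusters as loci.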

Additional observations from a re-analysis of the deposited data

How the results depend on the processing

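With FPKM as deposited 90 transcripts were called (22 higher, 68 lower in DM) among 261 of all lncRNAs. With a mean of at least 2 FPKM there were 32 (10 higher, 22 lower) among 118, and with a mean of at least 20 fragment equivalents 47 (30 lower) among 188. Quantile normalization gave 61 higher and 28 lower among 244 of all lncRNAs, 49 of its calls in the class being among the 90. Division by the library median gave 62 higher and 23 lower among 242, 45 of its calls in the class being among the 90. The replicate block gave 20 calls (7 higher, 13 lower, 72 of all lncRNAs). Across transcripts, same-numbered libraries hardly deviated together (correlations of 0.094, 0.064 and 0.028). These correlations cannot show a shift common to a whole library, and replicate 1 had the highest median of the class in both stages. Whether the numbers pair the libraries is therefore not settled. With unadjusted p there were 136 calls (105 lower) among 455, and without the limit on the fold change 169 (37 higher, 132 lower) among 470. Summing transcripts within 5 kb gave 173 called loci of 3531 (4.9%, 40 higher, 133 lower). Length-weighted means over the same transcripts gave 61 of 3483 (1.75%, 15 higher, 46 lower). No count of all lncRNAs is given for these fits, so the shares have no background beside them. A sum adds the FPKM of neighbours, and log2(FPKM + 1) shrinks a fold change less at a higher level. The counts from sums and from means are therefore not comparable. Leaving out 1 library gave 9 to 35 calls (5 to 8 higher, 4 to 29 lower, 50 to 134 of all lncRNAs), most without DM replicate 1 and fewest without GM replicate 3. Without both first replicates, an alternative chosen after seeing the data like the fragment filter, the length-weighted loci and the settings of the runs, 1 was called (0 higher, 1 lower, 1 of all lncRNAs). This 1 was not among the 90, so all of the 90 lost their call here, the 9 called with each library left out in turn included. The median log2 fold change of the class was -0.47 with a pseudocount of 0.1 FPKM (-0.40 for all lncRNAs). It was -0.058 after quantile normalization (-0.033 for all) and -0.051 after division by the library median (-0.0098 for all). A named gene lay within 1 kb of 116 transcripts and within 100 kb of 3903, against 445 within 5 kb.

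Changes that turned direction were those of transcripts with no call. After quantile normalization MSTRG.29697.1 was at -0.10, MSTRG.28658.1 at -0.069, MSTRG.29821.1 at -0.15 and MSTRG.4300.1 at 0.098. After division by the library median MSTRG.25864.1 was at 0.071, MSTRG.25679.1 at 0.32 and MSTRG.4300.1 at 0.18. Without GM replicate 1 MSTRG.28658.1 was at -0.0054 and MSTRG.4300.1 at 0.047, without DM replicate 1 MSTRG.29821.1 was at -0.012, and without DM replicate 2 MSTRG.4300.1 was at 8.1e-05. Without both first replicates MSTRG.29442.1 was at -0.0054, MSTRG.28658.1 at -0.0022, MSTRG.29443.1 at 0.0052 and MSTRG.29821.1 at -0.030. With 1 library left out, MSTRG.29442.1 reached 0.24, MSTRG.28658.1 0.25, MSTRG.29443.1 -3.67, MSTRG.29821.1 0.11 and MSTRG.4300.1 -0.20 at the other end. The causes were not tested. Of the other values of named transcripts under the alternatives, 440 kept direction and side of the threshold, 88 lost a call and 2 gained one. The number of libraries and the few fragments per transcript limit the precision.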

Other observations

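At least 1 library was listed at 0 in 19 intergenic single-exon lncRNAs while another of the same stage had at least 5 FPKM. Of the 19, 18 carried a strand. MSTRG.23878.1 had 30.4, 28.0 and 0 FPKM in DM and was listed at 0 in all GM libraries, and MSTRG.4688.1 was listed at 0 in all DM libraries and had 0, 80.9 and 76.3 FPKM in GM. Their fitted log2 fold changes of 3.28 and -4.21 were the largest of the class in each direction, and neither was called (adjusted p = 0.137 and 0.136 in limma). At NW_013186117.1, 19111 to 19647, MSTRG.29413.1 on the plus strand had 0, 32.4 and 36.5 FPKM in DM and 8.11, 45.5 and 52.4 FPKM in GM, while MSTRG.29414.1 on the minus strand had 42.4, 1.18 and 3.12 FPKM in DM and 45.9, 3.65 and 8.45 FPKM in GM.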
